A study of Rattus norvegicus with 6 samples.

Results

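The genomic stretches described here are the short tiled regions of a rat methylation array, each covered by 2 to 5 neighbouring probes. Probes whose gaps were at most 1000 bp were joined into regions, using the coordinates on the rat build rn4 that the scanner files give, and regions of 2 to 5 probes on chromosomes 1 to 20 were kept whatever their signal. This gave 520 short regions among 16123 regions in all, holding 2140 probes. The study measured DNA methylation in hearts of newborn Sprague-Dawley (SD) rats at day 1. There were 3 control arrays, from offspring of dams given 30 µL of saline into the trachea during pregnancy, and 3 PM2.5 arrays, from offspring of dams given a suspension of PM2.5, fine airborne particulate matter, by the same route. The labels speak of different PM2.5 concentrations, and the one behind these arrays is not given in the sources used here. All dams were anaesthetised with ether, and the DNA came from tissue labelled cardiac muscle. The labels call the samples of a group biological replicates without giving their litters, so p-values cover only the spread among these samples.

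In methylated DNA immunoprecipitation (MeDIP), an antibody against 5-methylcytosine pulls down fragments that carry methylated CpG sites. Here the captured DNA was labelled with Cy5, its input DNA with Cy3, and both were hybridised to the same array. The log2 ratio of Cy5 over Cy3 rises with the number of methylated cytosines on a fragment, so it depends on CpG density as well as on the share of methylated copies. Methylation of CpG sites in gene promoters is known to go with silencing of the gene, and it is laid down anew in the early embryo. The whole heart holds muscle cells, fibroblasts, endothelial and blood cells, so a change in their shares and a change within one cell type cannot be told apart. The identity of the tissue was not checked here, since the arrays measure no transcripts.

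Some of the short regions were brief stretches of tiling and some were more sparsely probed. Of the 520, 41 held 2 probes, 99 held 3, 139 held 4 and 241 held 5. Their width had a median of 692 bp, from 192 to 1823 bp, against 1669 bp for the 14886 longer regions of at least 6 probes. The mean distance between neighbouring probes of a region had a median of 186.7 bp in short and 183.6 bp in longer regions, with upper quartiles of 277.9 and 202.8 bp. Among the short regions those of 5 probes were the more widely spaced, with a median of 208.3 bp and an upper quartile of 327.4 bp. Regions of 6 probes, just outside the list, had 247.6 and 299.4 bp, so wide spacing was not particular to short regions. The 3-probe regions had a median width of 370 bp. The mean probe length per region also had nearly the same median, 48.29 nt against 48.3 nt, but varied more among the short regions. Regions with a mean probe length over 52 nt made up 25.4% of short and 17.2% of longer regions. In many tiling designs probes over AT-rich sequence are made longer so that all melt alike. Whether that holds for this array is not given in the sources used here, and no probe sequence or rn4 annotation was used, so base composition, genes and exons of these regions were not analysed here.

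Part of the short regions lay beside another brief stretch. A neighbouring region stood within 2 kb of 83 of them (16%), against 2.27% of longer regions. For 40 of the 83 that neighbour was another short region, for 33 it was a single probe and for 10 it was a longer region. At the other extreme, 81 short regions (15.6%) lay more than 100 kb from any other region. Short regions were found on all 20 chromosomes and made up between 2.02% of the regions of chromosome 17 and 4.71% of those of chromosome 5, with 3.36% over all autosomes.

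Probes were lost at much the same rate in short and longer regions, but with few probes per region the loss left fewer short regions with a value. Input signal was well above background on all 6 arrays at 1692 of the 2140 probes (79.1%, the same share as in longer regions). On PM2.5 replicate 1, the scanner software marked 44.4% of these 1692 spots as uneven or as outliers (45.6% in longer regions), against 0.591% to 2.78% on the other arrays. The marked spots were the brighter ones, with a median Cy5 intensity of 2490 on control 1 at probes marked on PM2.5 replicate 1, against 633 at the others. Their log2 ratio was higher on every array, with a median of 0.17 against -0.36 on control 1. A region was tested where at least 2 of its probes were unmarked on all 6 arrays, which held for 275 of the 520 short regions (52.9%) and for 93.5% of longer ones. The 275 are therefore the dimmer share of the list. Of the other 245 short regions, 175 had 1 usable probe and 70 had none. With PM2.5 replicate 1 left out and the probes chosen on the remaining 5 arrays, 482 of the 520 had a value, and results on these 482 are given beside those on the 275. PM2.5 replicate 1 was also the only array scanned on its day. Controls 2 and 3 had the same scan time and were taken to share a slide, which was not checked otherwise. No spot of a short region was saturated on any array.

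Short regions reached lower ratios than longer ones. Ratios were set relative to the median of an array's kept probes, which on PM2.5 replicate 1 left out many brighter spots. Its 0 is therefore not the same level as on the other arrays. Taking only probes unmarked on all arrays moved the centre from -0.0234 to -0.0476 there, and from 0.17 to -0.126 on control 1. The mean log2 ratio of the 275 regions was -0.74, -0.81 and -0.83 on controls 1 to 3 and -0.28, -0.59 and -0.64 on PM2.5 replicates 1 to 3. With each array centred on its own kept probes, the PM2.5 replicates thus stood above all controls, with replicate 1 the highest. With the common centre the median change of the short regions was 0.0952 in place of 0.282. On the 482 regions of 5 arrays the levels were nearer to 0, at -0.396, -0.419 and -0.42 on the controls and -0.319 and -0.333 on PM2.5 replicates 2 and 3. Short minus longer regions was -0.213, -0.215 and -0.216 on the controls and -0.149, -0.173 and -0.188 on the PM2.5 arrays. It was below 0 on 6 of 6 arrays (exact two-sided sign-flip test over arrays, p = 0.0312, the smallest 6 arrays can give, adjusted p = 0.0341 over 12 such tests). All arrays carry the same probes, so this p covers the spread among arrays and not that among regions. On 5 arrays the difference was smaller, -0.144 in controls and -0.128 in PM2.5. On 6 arrays the share of regions with a ratio under -1 was 36.8% ± 3.03 (SD, n = 3) of short and 26.7% ± 3.42 of longer regions in controls, and 25.6% ± 4.20 and 13.8% ± 4.16 in PM2.5. These shares also depend on the centre of each array.

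**Figure D1:**
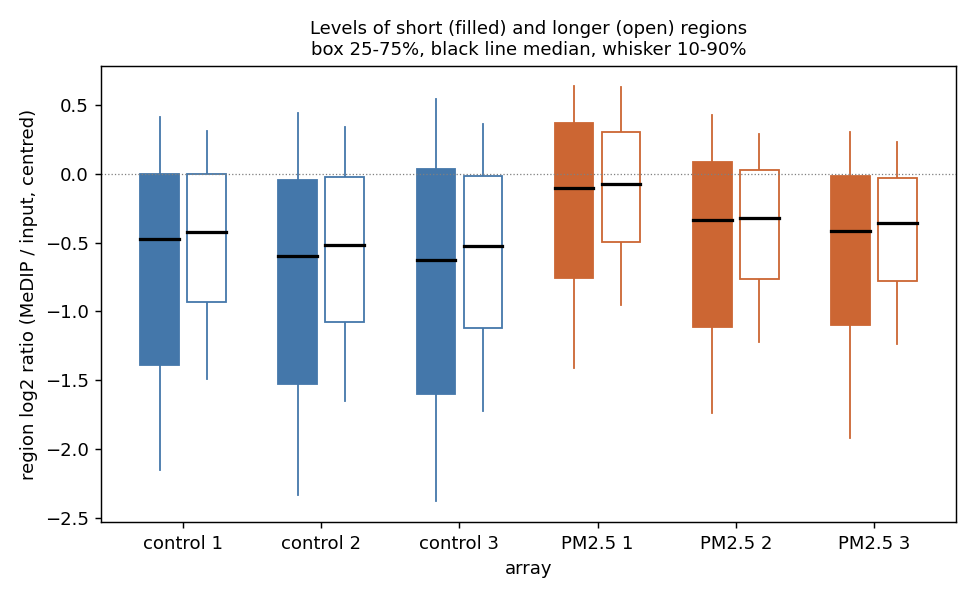
Distribution of region log2 ratios (vertical axis, MeDIP over input, centred on each array's median) on each of the 6 arrays, for 275 short regions (filled) and 13914 longer regions (open); boxes span the 25th to 75th percentile, black lines are medians and whiskers the 10th to 90th percentile. The 10th percentile of short regions was -2.15 on control 1, against -1.49 for longer regions, while the medians were -0.48 and -0.42.

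The difference lay in the tails and turned round with probe length. The standard deviation over short regions was 1.07, 1.13 and 1.19 on the controls and 0.91, 0.94 and 0.92 on the PM2.5 arrays. Longer regions had a mean standard deviation of 0.79 in controls and 0.62 in PM2.5, lower than short regions on 6 of 6 arrays (exact sign-flip p = 0.0312, adjusted p = 0.0341). A mean over few probes varies more, and how much of this difference goes with probe number was not estimated. Regions with equal numbers of usable probes were compared. Among regions with 2 usable probes the short ones spread more widely by 0.12 in controls and 0.05 in PM2.5, on 6 of 6 arrays (exact sign-flip p = 0.0312). On PM2.5 replicate 1 that difference was 0.0118. Longer regions with 2 usable probes had lost most of their probes, so the 2 kinds also differ in that. Where the mean probe length was 45 to 48 nt, short regions stood above longer ones by 0.11 on average, on 6 of 6 arrays. From over 48 to 52 nt they stood below by 0.21, and over 52 nt by 0.29, each on 6 of 6 arrays with the same p. These p-values again cover the spread among arrays that carry the same probes, and not that among regions. On the 482 regions of 5 arrays the differences were 0.06, -0.28 and -0.31, each with 1 sign on all 5 arrays (exact sign-flip p = 0.0625, the smallest 5 arrays can give).

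**Figure D2:**
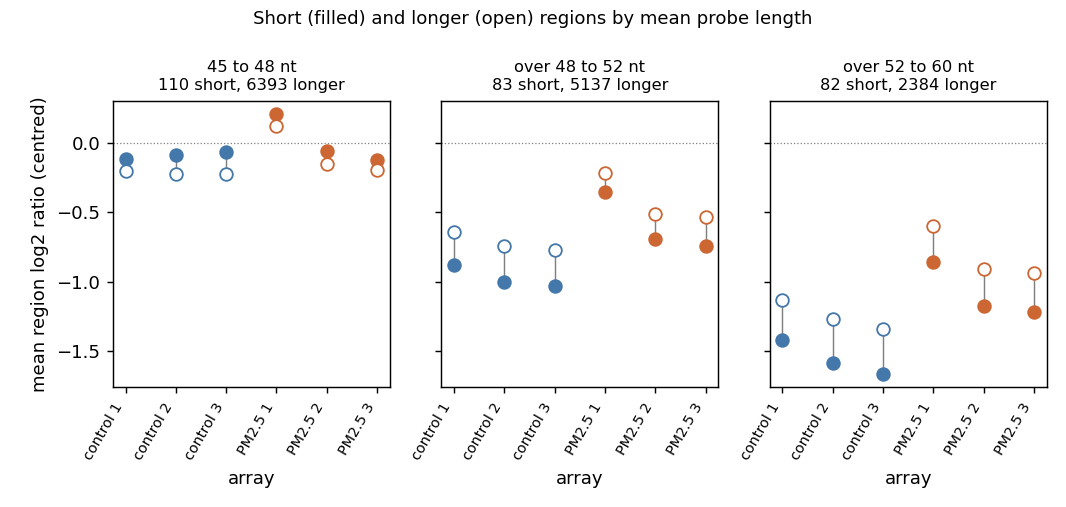
Mean region log2 ratio (vertical axis, centred) of short (filled) and longer (open) regions on each array, in 3 classes of mean probe length per region; grey lines join values of the same array. Short regions stood above longer ones in the shortest class and below them in the other 2 classes on every array.

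A larger part of the variation among probes lay between regions here. In controls, the variance between short regions was 36% of the total among their probes, against 13.4% for longer regions. On 5 arrays it was 38.1% against 13.2%. Neighbouring probes of a short region could nonetheless differ strongly. The difference between the highest and the lowest probe of a region averaged 1.70 ± 0.0927 (SD, n = 3) in controls and 1.41 ± 0.0551 in PM2.5 on the log2 scale. The region chr15:24226437-24228113 had the widest range of control means, 3.51, among regions with at least 3 usable probes and all of them well above background. Its probe at -810 bp from the region's centre averaged -1.86 ± 0.149 in controls (SD, n = 3), while the probe at -248 bp averaged 1.65 ± 0.685. At chr10:44909984-44911674 the range was 2.51 and at chr6:105343120-105343808 it was 2.28. In the chromosome 6 region the neighbouring probes at 154 and 317 bp from the centre held 0.43 ± 0.0765 and -1.85 ± 0.143 in controls. Probes can differ in their own response, so a difference in level between probes, or between regions of different probes, need not be one of methylation.

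Ratios of the regions were correlated between arrays. Over the 275 regions the ratios of 2 arrays correlated at Pearson's r of 0.963 to 0.986 among controls and 0.92 to 0.966 among PM2.5 arrays. Between the groups r was 0.896 to 0.918 with PM2.5 replicate 1 and 0.941 to 0.968 with the other PM2.5 arrays. The regions are not independent replicates. Among regions with at least 3 usable probes, all of them well above background in both colours on 6 arrays, the highest control level belonged to chr3:146471582-146472836. Its ratio was 0.64, 0.83 and 0.80 on the controls and 1.01, 0.53 and 0.45 on the PM2.5 arrays, and the groups overlapped. Next came chr10:95778572-95780072 with 0.69 ± 0.0713 (SD, n = 3, controls) and chr19:11624505-11624862 with 0.67 ± 0.16. They were followed by chr10:15491976-15492732 with 0.50 ± 0.0309 and chr7:70134657-70135366 with 0.50 ± 0.106. The standard deviations of neighbours in this order overlapped. The lowest was chr7:127059610-127060714, at -1.11 ± 0.118 in controls. It was followed by chr2:87929393-87929913 at -0.91 ± 0.135, chr9:77899840-77901534 at -0.89 ± 0.264, chr6:105343120-105343808 at -0.78 ± 0.062 and chr10:44909984-44911674 at -0.76 ± 0.186. The rule limits this list to bright probes. The lowest of all tested short regions reached -5.16 as a mean over 6 arrays, with Cy5 signal near background.

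Contrast among short regions was smaller on the PM2.5 arrays. The spread over short regions was 1.13 ± 0.0565 (SD, n = 3) in controls and 0.92 ± 0.019 in PM2.5, and PM2.5 minus control was -0.29 for the probe range within regions. It was 0.29 for the mean ratio and 0.04 for the distance to longer regions. In each of these 4 measures the groups did not overlap, which gives p = 0.1 in the exact two-sided permutation test, the smallest p that 3 against 3 arrays allow (adjusted p = 0.1 over the 4), so none passed 0.05. On 5 arrays the last 2 differences were 0.0851 and 0.0153, and with marked spots kept 0.103 and 0.0224. With marked spots kept the probe range of the groups overlapped (1.75 on PM2.5 replicate 1 against 1.67 on control 1, exact permutation p = 0.2). On the 482 regions of 5 arrays the spread was 0.957, 1.01 and 1.05 on the controls against 0.81 and 0.816 on PM2.5 replicates 2 and 3. Longer regions also had a smaller spread in PM2.5 there, 0.47 against 0.61 in controls. In the authors' deposited table the spread over the same 275 regions was 0.716, 0.753 and 0.779 on the controls and 0.657, 0.761 and 0.755 on the PM2.5 arrays, and there the groups overlapped.

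Turning to single regions, 40 of the 275 tested short regions were higher in PM2.5 (14.5%, where 9.79% of all 14786 tested regions were called) and 3 were lower (1.09%, where 0.0473% of all were). The threshold was an adjusted p under 0.05 in limma over all tested regions, as throughout. The 3 lower regions were among only 7 on the whole array. The split between directions depended on the centre. Centring every array on the same probes, those unmarked on all 6, moved the median change of all regions from 0.24 to 0.05 and left 11 short regions higher (4% against 2.16% of all) and 3 lower (1.09% against 0.216%). With marked spots kept, 53 of 484 were higher (11% against 7.25%) and 7 lower (1.45% against 0.25%). On the 5 arrays without PM2.5 replicate 1, 59 of 482 were higher (12.2% against 7.54%) and 16 lower (3.32% against 0.375%). Of these, 17 of the 59 and 3 of the 16 were also called with the shared slide as a random block (estimated correlation between its arrays 0.569), and no others were. The median change of short regions stood above that of all regions by 0.05 on 6 arrays and by 0.01 on 5. Scale, quantile and normexp processing and the authors' deposited values called 0 short regions in either direction, as did leaving out control 2 or control 3 (26 to 71 higher and 3 to 11 lower at unadjusted limma p under 0.05). With the shared slide as a random block, 3 were called higher and 0 lower (78 and 4 before adjustment).

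The largest of the 3 falls was at chr12:42696398-42696743, a region of 346 bp and 3 probes. Its ratio was 1.04, 1.20 and 1.04 on controls 1 to 3 and 0.07, 0.45 and 0.41 on PM2.5 replicates 1 to 3, so every PM2.5 array was below every control. The change was -0.79 ± 0.148 (SE, limma, adjusted p = 0.0252). It rests on the outer probes, 150 bp to each side of the centre. The central probe, marked on PM2.5 replicate 1, was near -0.23 ± 0.0633 in controls and at -0.28 and -0.01 on PM2.5 replicates 2 and 3. With all 3 probes on 5 arrays the region held 0.635, 0.706 and 0.631 in controls against 0.205 and 0.273 in PM2.5 (limma adjusted p = 0.0178).

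The second fall, chr3:103184124-103184693, covered 570 bp with 4 probes. Its ratio was 0.82, 1.08 and 1.16 in controls against 0.55, 0.50 and 0.49 in PM2.5, a change of -0.50 ± 0.14 (limma adjusted p = 0.0466). The fall was confined to the 2 probes at one end. The 2 probes at the other end were marked on PM2.5 replicate 1, and their ratios overlapped between the groups on the arrays used. On 5 arrays with 4 probes the region did not pass (change -0.28, limma adjusted p = 0.083).

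The third fall, chr1:219520656-219521452, was 797 bp wide with 5 probes and lay 171816 bp from the next tiled region. Its ratio was 1.06, 0.88 and 0.95 in controls against 0.34, 0.47 and 0.59 in PM2.5, a change of -0.50 ± 0.137 (limma adjusted p = 0.0458). With all 5 probes on 5 arrays it held 0.782, 0.823 and 0.906 in controls against 0.465 and 0.515 in PM2.5 (adjusted p = 0.0286 in limma). In all 3 falls each used probe was well above background in both colours on every array. Their sign was negative in each alternative that gave a value. Without control 1 or without PM2.5 replicate 3, 2 of the 3 passed, without PM2.5 replicate 2 only 1 did, and without control 2 or control 3 none did (limma adjusted p 0.118 to 0.232).

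**Figure D3:**
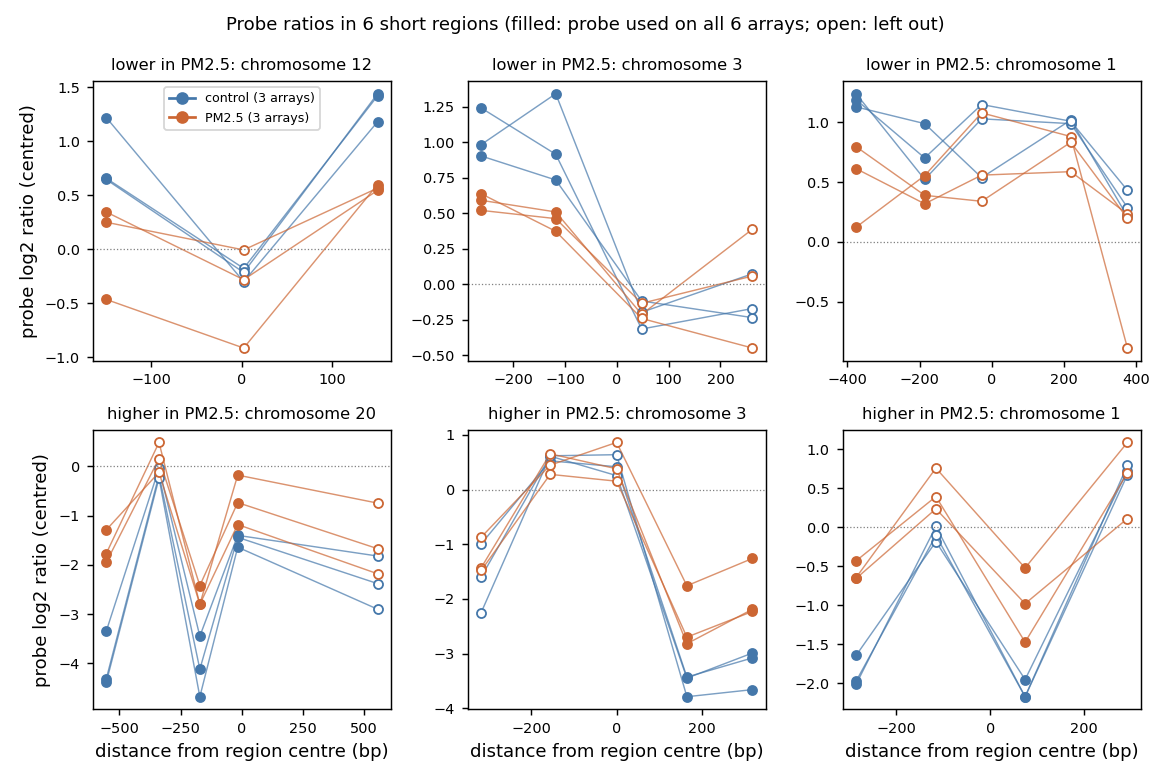
Probe log2 ratios (vertical axis, centred) against the distance from the region's centre in bp, for the 3 short regions lower in PM2.5 (top) and 3 of the named rises (bottom); each line is 1 array, blue for control and orange for PM2.5, and open symbols are probes left out of the 6-array test. At the region on chromosome 12 the outer probes of PM2.5 lay below those of all controls, while the central ones overlapped.

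On 6 arrays no other short region was lower past the threshold. The 7 regions with the smallest unadjusted p among falling regions with at least 3 usable probes did not pass, with changes of -0.27 to -0.11 and limma adjusted p of 0.204 to 0.647. They were chr1:78808854-78810357 (-0.27), chr10:15491976-15492732 (-0.19), chr3:105795603-105796295 (-0.21), chr10:95778572-95780072 (-0.13), chr3:9403143-9404401 (-0.11), chr7:5159051-5159664 (-0.17) and chr10:109860996-109861765 (-0.11). The groups overlapped in 5 of the 7.

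The 40 rises were found at the low end of the scale. Their processed ratios had a median of -2.02 on controls against -1.23 on PM2.5 arrays, and the median of their mean probe length was 53.25 nt against 49.2 nt over the 275. In 33 of the 40 at least 1 used probe failed to rise well above background in Cy5 on each of the controls, and in 5 all used probes did. There the control ratio is only a bound, no fold change is given, and a higher ratio need not be more captured DNA. The 10 rises named by their processed values differed by 0.985 to 1.52, and each had at least 1 such probe, so these are not measured sizes and give no order. One was at chr20:5140243-5141402, where controls 1 to 3 held -2.73, -3.29 and -3.57 and the PM2.5 arrays -1.58, -1.76 and -1.70 (limma adjusted p = 0.0194). Cy5 was not well above background on any control at 2 of its 3 used probes. The third, at -16 bp from the centre, was well above background on 2 of 3 controls and on all PM2.5 arrays, and its ratio was -1.40, -1.44 and -1.64 in controls against -0.18, -1.18 and -0.73 in PM2.5.

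At chr3:32958383-32959070 no array had Cy5 well above background at either used probe, so neither group has a measured level. Its probes at -156 and 0 bp from the centre, left out of the test, held 0.59 ± 0.0513 and 0.44 ± 0.192 in controls (SD, n = 3). In PM2.5 they held 0.46 ± 0.189 and 0.465 ± 0.362, and the groups overlapped at both. At chr1:245329237-245329868 the 2 used probes were not well above background on any control. There 3 of the 4 probes, including 1 that was left out, were higher on every PM2.5 array than on every control. The left-out one, at -116 bp from the centre, was well above background on all arrays, marked on PM2.5 replicate 1, and held -0.18, 0.01 and -0.10 in controls and 0.40 and 0.24 on PM2.5 replicates 2 and 3. The remaining left-out probe, at 292 bp, was equally bright and marked there, and its groups overlapped. It held 0.73, 0.80 and 0.68 in controls and 0.70 and 0.11 on PM2.5 replicates 2 and 3. The others were chr7:11785086-11785928, chr13:111025348-111026042, chr10:65716951-65717326, chr1:92516776-92517584, chr4:166867621-166868148, chr1:204962082-204963324 and chr14:42328888-42329397. The chromosome 14 region held just 2 probes, lay 398610 bp from the next region, and had Cy5 not well above background at either probe in either group. In the chromosome 13, 10, 4 and 1 (from 204962082) regions 1 used probe was well above background throughout, and its change was 1.18, 0.60, 0.73 and 0.34 respectively. Left-out probes of this kind, with marked spots included, lay in other places too. At -145 bp on chromosome 13 the means were -0.61 in controls and -0.68 in PM2.5, and at -338 bp on chromosome 20 -0.15 and 0.18. In the region chr1:92516776-92517584 they were -0.375 and -0.04 at -90 bp, and -0.87 and -0.42 at 382 bp. All 10 kept a positive change wherever an alternative gave a value, but none passed without control 2 or control 3 (limma adjusted p 0.072 to 0.198). On 5 arrays 9 of the 10 passed, and chr1:92516776-92517584 did not (limma adjusted p = 0.0673). The processed difference became 0.381 at chr3:32958383-32959070, 0.568 at chr1:245329237-245329868, 0.676 at chr13:111025348-111026042 and 0.56 at chr1:92516776-92517584, from 1.24, 1.20, 1.15 and 1.11 on 6 arrays.

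Of the 40 rises, 3 had every used probe well above background on all arrays. They were picked out for that after their values were seen. At chr13:93654142-93654890 the ratio was -0.57, -0.53 and -0.84 in controls against 0.35, -0.15 and -0.12 in PM2.5, a change of 0.68 ± 0.168 (limma adjusted p = 0.0368), and it was called on 5 arrays as well (change 0.32, limma adjusted p = 0.0376). At chr5:109337477-109338167 the ratio went from -0.61 ± 0.105 to -0.01 ± 0.304, but the change was 0.08 on 5 arrays with 4 probes. At chr7:127059610-127060714, the lowest of the bright regions above, it went from -1.11 ± 0.118 to -0.62 ± 0.116 (limma adjusted p = 0.0465), and the change on 5 arrays was 0.21, which did not pass. Of the 40 rises, 29 were called on 5 arrays, 31 with marked spots kept, 11 with the common centre and 11 in all of these.

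On 5 arrays, where the brighter regions also had values, falls were more numerous. The 16 lower regions had a median control ratio of 0.78, against 0.41 in PM2.5, with changes of -0.68 to -0.30. In 15 of the 16 every used probe was well above background in Cy5 on all 5 arrays. Of the 48 used probes of the 16 regions, 45 were lower in PM2.5 on average, against 709 of 1383 in short regions not called. The regions were called by the mean of these same probes, so the count of 45 is not separate evidence. A mean probe length of at most 48 nt was found in 13 of the 16. Among them 8 of the 16 were 3-probe regions, 346 to 448 bp wide. Of the 87 tested 3-probe regions, 8 were higher and 8 lower, with a median change of -0.06, whereas of the 240 tested 5-probe regions 36 were higher and 6 lower, with a median change of 0.11. Over all tested regions of the 5 arrays 7.54% were higher and 0.375% lower. The mean ratio in controls was also higher in 3-probe regions, -0.17 against -0.52.

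The 3 largest of these falls, singled out after their values were seen, were each based on 2 used probes. At chr1:86652722-86654036 the ratio was 1.5, 1.02 and 1.14 in controls and 0.54 on both PM2.5 arrays used. PM2.5 replicate 1 held 1.59 at the same probes, marked spots included, above every control. At chr7:138336435-138336791 it was 1.04, 1.16 and 1.23 against 0.58 and 0.65, with 1.27 on PM2.5 replicate 1. At chr10:83142589-83142940 it was 0.28, 0.51 and 0.61 against 0.02 and -0.10, with -0.56 on PM2.5 replicate 1. The array left out of the test thus lay above the controls in 2 of the 3 and below them in the other. Over the 16 regions the median on PM2.5 replicate 1 was 0.44, against 0.70 to 0.81 on the controls, and over the 59 higher regions it was -1.01, against -1.67 to -1.39. The regions were called with these same control values, and those of PM2.5 replicate 1 include marked spots. Its place beside the controls is therefore not separate evidence.

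**Figure D4:**
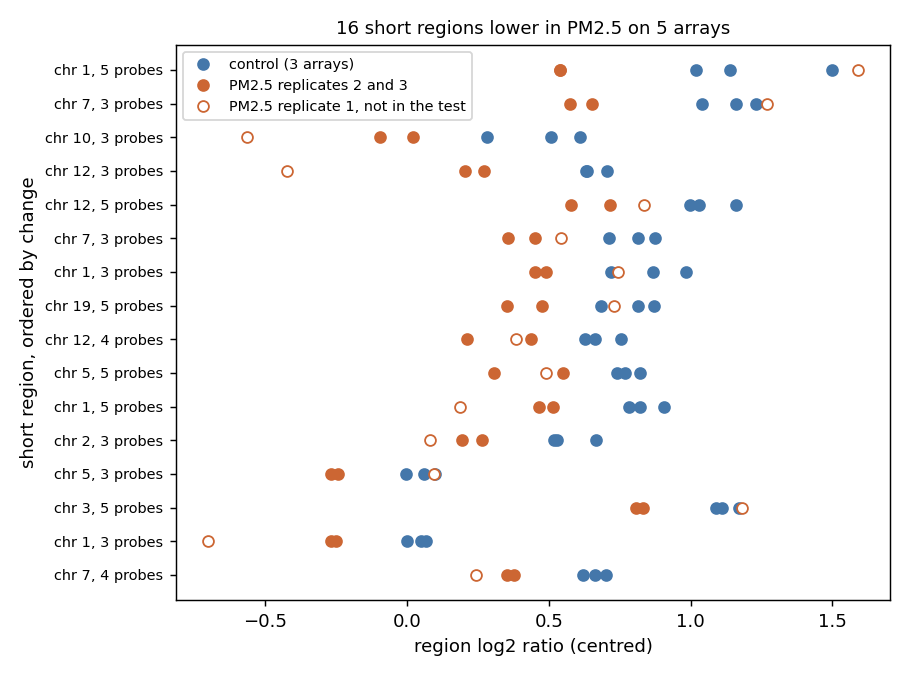
Region log2 ratio (horizontal axis, centred) of the 16 short regions called lower in PM2.5 on 5 arrays, 1 region per line in order of change; blue points are the 3 controls, filled orange points PM2.5 replicates 2 and 3, and open points PM2.5 replicate 1, which was not in the test and includes marked spots. Filled orange points lie left of all blue points in each region, and the open points lie on both sides of them.

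The 59 rises on 5 arrays had a median control ratio of -1.53, against -1.02 in PM2.5. In 45 of them at least 1 used probe was not well above background in Cy5 on any control, and in 11 every used probe was well above background on all 5 arrays. Restricted to the 268 short regions of this bright kind, 11 were higher (4.1%, where 1% of all 4997 such regions were) and 15 lower (5.6%, where 0.981% were). The median change was -0.07 in these short regions and -0.05 in all such regions. A short region passes this restriction with fewer probes than a longer one, so the compared regions also differ in the number of probes averaged.

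Level and change went together throughout the list. Ordered by the mean ratio over the 5 arrays and cut into 4 groups of near equal size, the lowest 121 short regions had a median change of 0.34, with 46 called higher and 0 lower. The next 120 had 0.16 with 11 higher and 0 lower, and the 120 after those had -0.03 with 2 in each direction. The highest 121 had -0.19, with 0 higher and 14 lower, and 12.4% of them had a positive change. Over all tested regions of the 5 arrays 7.54% were higher and 0.375% lower. The same grouping of longer regions is not given here, so this order is not shown to be particular to short regions. On 6 arrays the medians of 4 such groups were 0.54, 0.37, 0.22 and 0.02 from the lowest to the highest. Probe length moved with the level, with a median of 53.25 nt in the lowest and 45.4 nt in the highest group on 5 arrays, and its part in the change was not tested. When each probe length was centred by itself, 0 short regions were called by limma on 6 arrays, with 47 above and 15 below before adjustment at the same threshold.

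**Figure D5:**
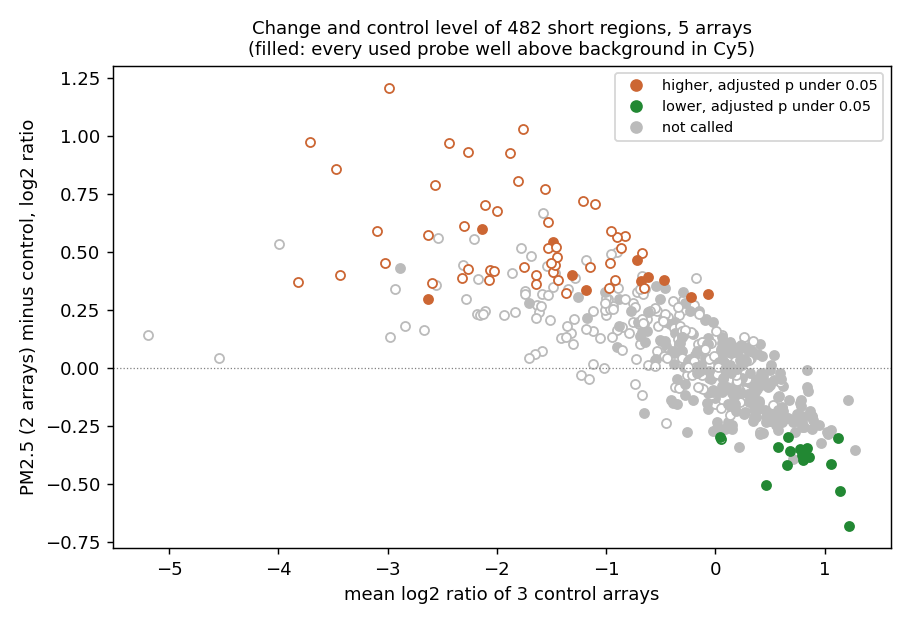
Change of the log2 ratio (vertical axis, mean of PM2.5 replicates 2 and 3 minus mean of 3 controls) against the mean control ratio (horizontal axis) of 482 short regions; orange points are called higher and green points lower by limma at an adjusted p under 0.05, and filled points have every used probe well above background in Cy5. The control values enter both axes; most of the 59 higher regions are open points at low control ratios, and 15 of the 16 lower regions are filled.

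Position along the chromosome was also compared. Short regions over 100 kb from any other had a mean control ratio of -1.08 ± 0.0418 on 6 arrays, and those within 2 kb of another -0.50 ± 0.0275. Of the former 8 of 46 were higher and 1 lower, and of the latter 3 of 31 were higher and 0 lower, where 9.79% and 0.0473% of all regions were. On 5 arrays the control means were -0.688 and -0.334, with 14 of 75 higher and 3 lower against 9 of 71 higher and 4 lower, where 7.54% and 0.375% of all were. Short regions at 2 to 10 kb and at 10 to 100 kb held -0.877 and -0.749 in controls on 6 arrays, and -0.376 and -0.363 on 5. The level thus did not follow the distance in order. Among 23 pairs of regions at most 2 kb apart with values on both sides, control ratios correlated at Pearson's r of 0.458 (Spearman's rho 0.277). For 389 pairs of a short region and the next region over 10 kb away r was 0.348 (rho 0.253). The regions share their arrays, and both values are descriptions. On chromosome 13, chosen after the counts were seen, 6 of 11 tested short regions were higher, where 12.1% of all its 478 tested regions were, and on 5 arrays 7 of 16 were, against 10.2%.

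The list ends at 2 and 5 probes. Just inside it, over regions with at least 1 usable probe, 2-probe regions averaged -0.65 in controls and -0.45 in PM2.5, and 5-probe regions -0.76 and -0.47. Just outside it, single probes averaged -0.87 and -0.59, and 6-probe regions -0.58 and -0.35. Further inside, 3-probe regions averaged -0.41 in controls and -0.26 in PM2.5, and 4-probe regions -0.66 and -0.39. Further outside, 7-probe regions averaged -0.71 and -0.44, so the level did not follow the number of probes in order. Within the days on which both groups were scanned, the median change of the 40 rises was 0.39 (control 1 and PM2.5 replicate 3) and 0.71 (controls 2 and 3 and PM2.5 replicate 2), and that of the 3 falls -0.47 and -0.62. For the 16 falls on 5 arrays the medians within these days were -0.28 and -0.42. All these regions had been called on the same arrays, with groups that did not overlap. The sign within a day was therefore fixed in advance, and these values do not test the part of scanning day.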

How the data were processed

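Scanner output of Feature Extraction 11.0.1.1 was used for all arrays. Per the file headers, the deposited intensity of each channel had its background subtracted, a spatial trend removed and a linear dye normalisation applied, and low signals carry a surrogate value. The log2 values in the authors' deposited table served as an alternative, with scale and smoothing unknown.

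From these, the log2 ratio of Cy5 over Cy3 was computed in R 4.3.3 with data.table (version 1.17.8). Spots marked as non-uniform or population outliers and all control spots were dropped, probes needed input signal well above background on each of the 6 arrays, and the median of an array's kept probes was subtracted from its values. A region's value is the mean of its probes unmarked on all 6 arrays, with at least 2 of them. PM2.5 was compared with control by lmFit and eBayes in limma 3.58.1 over all tested regions, with Benjamini-Hochberg adjusted p under 0.05. Values per array were compared by exact two-sided permutation tests. The limma fit was checked on simulated ratios with known changes, and the exact tests on fixed values with a known p. The simulated noise was independent between arrays, so that check does not cover a shared slide or the marked spots of PM2.5 replicate 1. The number of arrays limits the precision.

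The text names the 10 largest changes per direction among called regions whose groups did not overlap. Where fewer were called, regions of at least 3 used probes were added in order of unadjusted p. Also named were the 5 highest and 5 lowest control levels and the 3 widest probe ranges among regions with at least 3 used probes, all well above background in both channels on 6 arrays. The short regions, these rules and the tests were chosen with earlier results of these data known. Alternatives covered background correction (normexp, offset 50), normalisation, centring, filters, a block for scanning day, slide or replicate number, and leaving out each array. Arrays with the same scan time were taken as 1 slide, and the correlation within a slide was a moment estimate of 0.574. The fit on 5 arrays with their own probes and the centring of each probe length were chosen after seeing the data. No probe sequence, gene annotation of build rn4 or gene list was used. Figures were drawn with matplotlib 3.10.9.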

Additional observations from a re-analysis of the deposited data

How the results depend on the processing

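The 40 rises among short regions became 0 under normexp correction, scale or quantile normalisation, the authors' deposited values, both channels well above background or each probe length centred. They became 3 with slide as a random block, 11 with the common centre, 16 with region medians, 18 without the input filter, 23 with at least 3 probes used, and 17 on 5 arrays with slide as a random block. The 3 falls became 0 under normexp, scale, quantile, the authors' values, both channels, at least 3 probes, the slide block and each probe length centred, 1 with region medians, 7 with marked spots kept and 16 on 5 arrays, 3 there with the slide block. Leaving out each array in turn gave 0 to 49 rises and 0 to 3 falls, with 0 of both without control replicate 2 or control replicate 3 and 1 fall without PM2.5 replicate 2. At an unadjusted limma p under 0.05, the settings with 0 calls had 26 to 71 higher and 0 to 15 lower.

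Deviations of same-numbered control and PM2.5 arrays correlated at -0.00814, 0.113 and -0.148, and those of differently numbered arrays at -0.196 to 0.196. With so few arrays this cannot settle whether samples were paired, and the labels give only the shared number. With the replicate block, 65 rises and 4 falls were called, and the 4 measures per array kept their values with p = 0.25 in the exact sign-flip test, the smallest 3 pairs allow. The differences between groups in mean ratio, gap to longer regions, spread and probe range kept their direction in every alternative that was run. Leaving out each array gave 0.182 to 0.363, 0.0341 to 0.0535, -0.236 to -0.18 and -0.343 to -0.257 for them in that order. Under the authors' values they shrank to 0.0522, 0.019, -0.0252 and -0.00474. The 10 named rises and 3 falls kept their sign wherever they had a value. Among the falls that did not pass, chr10:109860996-109861765 turned to 0.0605 with region medians, and chr7:5159051-5159664 ranged from -0.358 without PM2.5 replicate 2 to 0.0887 without PM2.5 replicate 3. The causes were not tested. Dim Cy5 signal limits the rises, and 2 to 3 usable probes limit most regions.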

Other observations

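Of the 16 falls found on 5 arrays, 4 also had a 6-array value, and 2 of these were called in it. Of the 59 rises, 40 had a 6-array value and 29 were called. With the marked spots of PM2.5 replicate 1 kept, 6 of the 16 falls and 40 of the 59 rises were called. The distance of a short region from its nearest neighbour reached 1901531 bp, and 38 short regions had no value even on 5 arrays.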
